A study of Homo sapiens with 6 samples.

Results

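The genes of the cytosolic ribosomal proteins, which together with the ribosomal RNAs build the ribosome, were followed in LNCaP cells, an androgen-sensitive line of human prostate cancer. Members were all rows of the expression table whose symbol has the form of a ribosomal protein symbol (RPL or RPS and a number) or is RPLP0, RPLP1, RPLP2 or RPSA, without the S6 kinases and the Y-linked RPS4 genes. The rule found 109 of 19571 genes. Of these, 76 are ribosomal protein genes proper (46 of the large subunit and 30 of the small), 8 are gene copies with a symbol of their own, 24 are pseudogenes and 1, RPS19BP1, encodes a protein that binds RPS19. Ribosomal proteins whose genes have other names, such as FAU, fell outside the rule and are given only where stated.

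RNA was sequenced from 3 libraries of cells stably carrying Flag-tagged wild-type KDM4B (replicates 1, 2 and 4), a histone demethylase that removes methyl groups from lysine 9 of histone H3, and from 3 libraries of cells with the empty vector (replicates 1, 2 and 3). All cells were grown in 10% FBS RPMI and then kept for 3 days in RPMI with 10% CFBS, as the labels write it. The study asked which splicing events KDM4B affects, and no source used here says whether the replicates of a group were separate cultures or clones, so the p-values measure only the spread between these libraries. KDM4B itself had 26.3, 27.2 and 25.8 FPKM (fragments per kilobase of transcript, scaled to the size of the library) in the KDM4B-labelled libraries, against 24.7, 25.2 and 25.3 FPKM in the vector libraries. This is a log2 fold change of 0.073 on the deposited values (adjusted p = 0.113, limma with Benjamini-Hochberg adjustment over all genes tested) and of 0.31 after scaling (adjusted p = 1.9e-05), so the groups are called here by their labels.

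The libraries differed in how much RNA without a poly(A) tail they held. A set of 179 such genes, mostly ribosomal RNA and small nuclear or nucleolar RNA, took 8.38% to 10.9% of the FPKM sum in the KDM4B-labelled libraries, against 0.252% to 0.633% in the vector libraries. The set was picked by RNA class and symbol, and any other RNA without such a tail stayed outside it. Below, RNAs that lack a poly(A) tail means this set. FPKM are relative values. Their sum was 443072 to 450157 in the KDM4B-labelled libraries, against 473047 to 479913 in the vector libraries. The part of this sum, or of the RNAs that lack a poly(A) tail, in the shift given next was not tested. The median log2 fold change of all genes tested was -0.22 as deposited. When every library was divided by a median of ratios factor (0.904, 0.942 and 0.914 in the KDM4B-labelled libraries; 1.09 in each of the vector ones), that median became -0.0013. Both scales are given below, and "scaled" means the second. The summed reads of skipped exon events, which overlap, were 14212396 to 14787321 in the KDM4B-labelled libraries and 16451082 to 17021204 in the vector libraries. Markers of luminal prostate cells (all 10 listed above 1 FPKM) summed to 1708 to 1781 FPKM in the KDM4B-labelled libraries, against 4421 to 4615 FPKM in the vector libraries. KLK3, the prostate-specific antigen gene, had 459, 394 and 471 FPKM in the KDM4B-labelled libraries, against 2162, 2260 and 2214 FPKM in the vector libraries. Markers of immune, endothelial, fibroblast, basal and red blood cells summed to at most 3.54 FPKM per list in any library. The part of these differences in the results below was not tested, and in bulk RNA fewer cells with a transcript and less of it per cell cannot be told apart.

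Ribosomal proteins are made in nearly equal amounts, since each ribosome holds a single copy of most of them, and their mRNAs are among the most abundant of a growing cell. Most of these mRNAs begin with a C followed by a run of pyrimidines, the terminal oligopyrimidine (TOP) tract, through which the mTOR pathway and the RNA-binding protein LARP1 control their translation. Free ribosomal proteins are degraded, and RPL5 and RPL11, when they are not built into ribosomes, bind MDM2 and stabilise p53.

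The starts of a few genes show what the tract looks like in the members the results turn on. Each line below gives 15 bases before and 15 bases from the RefSeq transcription start on GRCh38.p14, read on the gene's strand, with the unbroken run of C and T that begins at the start in capitals.
RPS18, a gene of the small subunit with one of the largest falls after scaling (chr6:33272060-33272089, plus strand): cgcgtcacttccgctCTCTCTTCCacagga
RPL41, the shortest ribosomal protein (chr12:56116618-56116647, plus strand): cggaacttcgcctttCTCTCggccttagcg
RPL24, which rose after scaling (chr3:101686704-101686733, minus strand): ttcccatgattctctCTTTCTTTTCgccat
RPS6, the substrate of the S6 kinases (chr9:19380222-19380251, minus strand): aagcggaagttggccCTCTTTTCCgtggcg
RPS15, with the largest rise of the 76 genes after scaling (chr19:1438381-1438410, plus strand): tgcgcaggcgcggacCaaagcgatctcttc
RPL10A, which fell after scaling (chr6:35468386-35468415, plus strand): tgcgcaagacatgctagtctcttttccggt
RPL22 (chr1:6199581-6199610, minus strand): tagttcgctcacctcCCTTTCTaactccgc
RPL22L1, its copy (chr3:170870181-170870210, minus strand): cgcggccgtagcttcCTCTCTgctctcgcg
RPS27 (chr1:153990747-153990776, plus strand): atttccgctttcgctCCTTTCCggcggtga
RPS27L, its copy (chr15:63157463-63157492, minus strand): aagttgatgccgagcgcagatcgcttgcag

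RPS18, RPL41, RPL24, RPS6, RPL22, RPL22L1 and RPS27 begin with a C and a run of pyrimidines, whereas RPS15, RPL10A and RPS27L do not at the start annotated here. RefSeq gave a start window for 62 of the 76 genes, the first listed one being used. A C followed by an unbroken run of at least 4 letters, each C or T, stood at the start of 42 of these 62 genes (67.7%), against 4.04% of all 27305 genes in the same table, read on the gene's strand only. Of the copies with a symbol of their own, 1 of 6 with a window (RPL22L1) had it. In the windows of 250 bases before and 50 after the start, CCGGAAGT, a core motif of ETS-family factors, occurred on either strand in 9 of the 62 genes (14.5%), against 4.44% of all genes. The E-box CACGTG, which reads the same on both strands, occurred in 3 of the 62 (4.84%), against 7.43%.

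All 76 genes passed the filter of a mean of at least 1 FPKM over the 6 libraries, as did 6 of the 8 copies, 10 of the 24 pseudogenes and RPS19BP1, 93 members in all. Group means of the 76 genes ran from 128 FPKM for RPL22 to 3727 FPKM for RPS2 in the KDM4B-labelled libraries (median 1128), and for the same genes from 155 to 4197 FPKM in the vector libraries (median 1318). Among genes outside the set of 179 RNAs that lack a poly(A) tail, 14 of the 20 highest mean levels were those of ribosomal protein genes. The same held for 40 of the 50 highest. The order of the levels was much the same in both groups, with a Spearman correlation of 0.99 across the 76 genes, which are not independent replicates. The 29.0-fold range between the highest and the lowest mean in the KDM4B-labelled libraries, and the 27.1-fold range in the vector libraries, compare levels per length. Ribosomal protein genes have many pseudogenes with which reads can be shared, so single levels are uncertain where the counting split such reads.

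Among the most abundant members were RPS2, RPL41, RPS18, RPL13A, RPL3, RPL7A and RPLP1. RPS2, which lies at the mRNA entry of the small subunit, had 3623, 3868 and 3690 FPKM in the KDM4B-labelled libraries, against 4201, 4309 and 4082 FPKM in the vector libraries. The groups did not overlap, and the log2 fold change was -0.17 as deposited (adjusted p = 0.0007, limma) and 0.073 after scaling (adjusted p = 0.0357, limma; 0.104 without KDM4B replicate 2, 0.0673 without vector replicate 1 and 0.131 without vector replicate 3). RPL41 had 3003, 3296 and 3203 FPKM in the KDM4B-labelled libraries, against 4231, 4230 and 4014 FPKM in the vector libraries, and stayed lower on both scales (-0.39 as deposited and -0.15 scaled; adjusted p = 2.7e-06 and 0.0019). RPL13A, a protein of the large subunit that also silences inflammatory mRNAs, averaged 2478 ± 77.9 FPKM in the KDM4B-labelled libraries and 2901 ± 63.6 FPKM in the vector ones (SD, n = 3 each). The scaled log2 fold change of 0.017 did not pass the test (adjusted p = 0.623, limma). RPLP1 likewise gave 0.035 (adjusted p = 0.241). RPL3, which reaches towards the peptidyl transferase centre, and RPL7A went the other way after scaling, at 0.14 and 0.17 (adjusted p = 0.0010 and 0.00066, limma).

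On the deposited values the share of the FPKM sum taken by ribosomal protein genes lay lower in the KDM4B-labelled libraries. The share of the 76 genes was 19.9%, 20.5% and 20.5% there, against 22.1%, 22.4% and 22.0% in the vector libraries. The means were 20.3 ± 0.336% in the KDM4B-labelled libraries and 22.2 ± 0.198% in the vector ones (SD, n = 3 each; exact permutation p = 0.1, two-sided, the smallest that 3 against 3 allows). The groups did not overlap. Of the sum without the RNAs that lack a poly(A) tail, the share was 22.4%, 22.4% and 22.9% in the KDM4B-labelled libraries, against 22.3%, 22.5% and 22.1% in the vector libraries. Here the groups overlapped, with a difference of 0.269 percentage points in the other direction (exact permutation p = 0.4). Genes of the large subunit made up 59.7% to 60.0% of the ribosomal protein FPKM in the KDM4B-labelled libraries, against 59.4% to 59.5% in the vector libraries, a ratio that does not depend on the scaling (exact permutation p = 0.1).

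**Figure D1:**
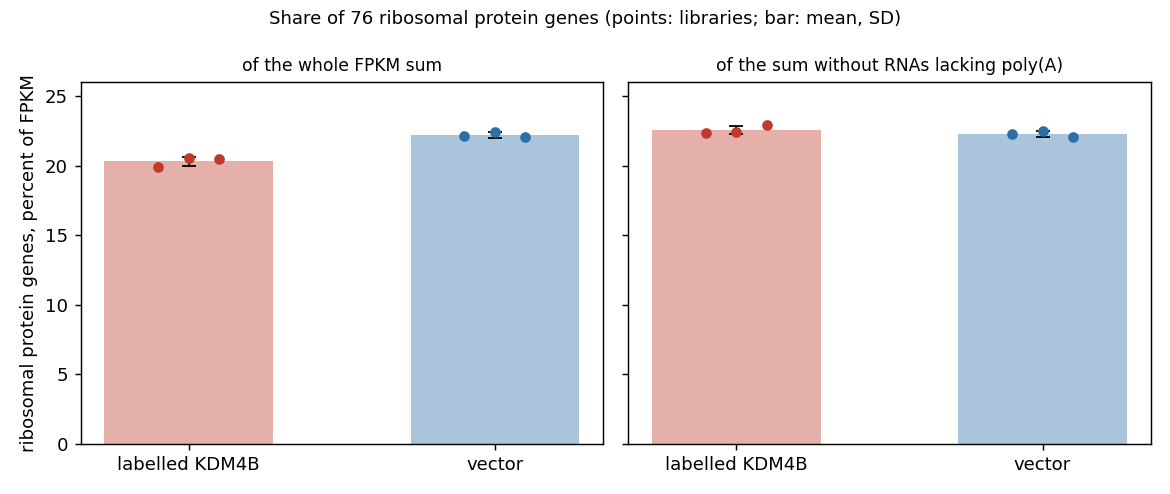
Percent of the FPKM sum (vertical axis) taken by the 76 ribosomal protein genes in the KDM4B-labelled libraries (left bar) and vector libraries (right bar), of the whole sum (left panel) and of the sum without RNAs that lack a poly(A) tail (right panel). Points are libraries, bars means and whiskers SD (n = 3): the groups are apart on the left, at 20.3% (labelled KDM4B) against 22.2% (vector), and overlap on the right, at 22.6% (labelled KDM4B) against 22.3% (vector).

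Gene by gene, most ribosomal protein genes were called lower on the deposited values and none was called higher, and this was not kept after scaling. As deposited, 0 of the 76 genes were called higher and 64 lower (limma, adjusted p under 0.05), where 13.4% of all 12148 genes tested were called higher and 60.3% lower. RPS15 alone was called higher without KDM4B replicate 1 (0.077, adjusted p = 0.0435). The median log2 fold change of the 76 genes was -0.22, as was that of all genes. After scaling, 28 were called higher and 16 lower, with 32 not called, where 34% of all genes were called higher and 34% lower, and the median was 0.028. Without KDM4B replicate 1 or without KDM4B replicate 2, 10 were called lower. The groups did not overlap for 70 of the 76 genes as deposited, against 76.3% of all genes tested, and for 50 after scaling, against 71.7% of all genes.

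**Figure D2:**
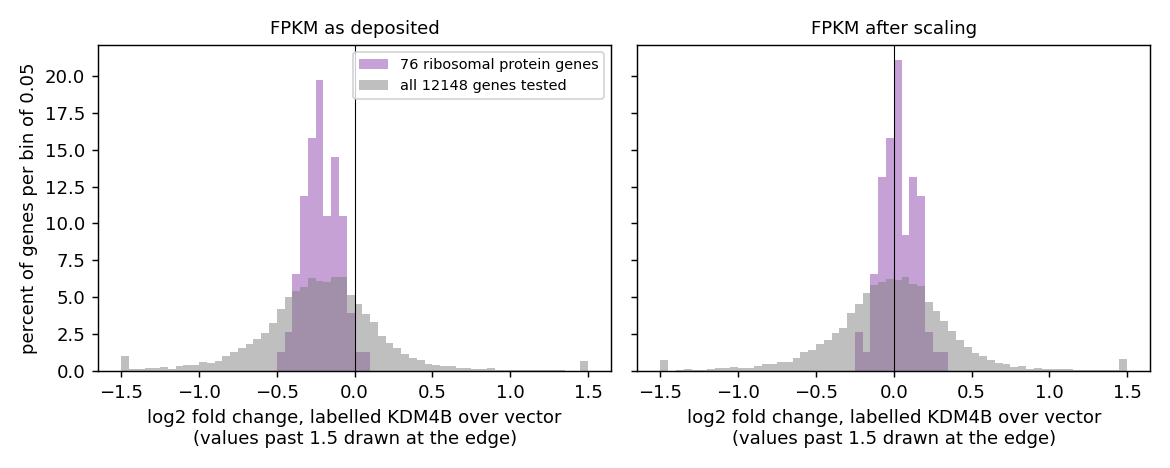
Percent of genes (vertical axis) per bin of log2 fold change of the KDM4B-labelled libraries over vector (horizontal axis), for the 76 ribosomal protein genes (purple) and all 12148 genes tested (grey), on deposited (left) and scaled FPKM (right). Both distributions lie at a median of -0.22 on the left, and that of the ribosomal protein genes runs from -0.23 to 0.31 on the right.

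The scaled changes of the 76 genes spanned a narrow range. The scaled log2 fold changes ran from -0.23 to 0.31, with an SD across genes of 0.11. This SD was 0.52 for 595 other genes with a mean of at least 100 FPKM, outside the set that lacks a poly(A) tail. For all genes tested it was 0.46. None of the 76 differed by more than 0.5, against 140 of the 595 others and 1911 of all 12148 genes (15.7%). Replicates were close, with a median coefficient of variation of 2.11% in the KDM4B-labelled libraries and 1.84% in the vector libraries. Scaled change and level had a Spearman correlation of -0.026 across the 76 genes, given as a description. Large subunit genes were called higher 17 times and lower 8 times of 46, and small subunit genes higher 11 times and lower 8 times of 30. For both subunits the share called higher was near the 34% of all genes tested. Without KDM4B replicate 1, the small subunit count called lower was 3, without KDM4B replicate 2 it was 4, and without vector replicate 2 or 3 it was 5.

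**Figure D3:**
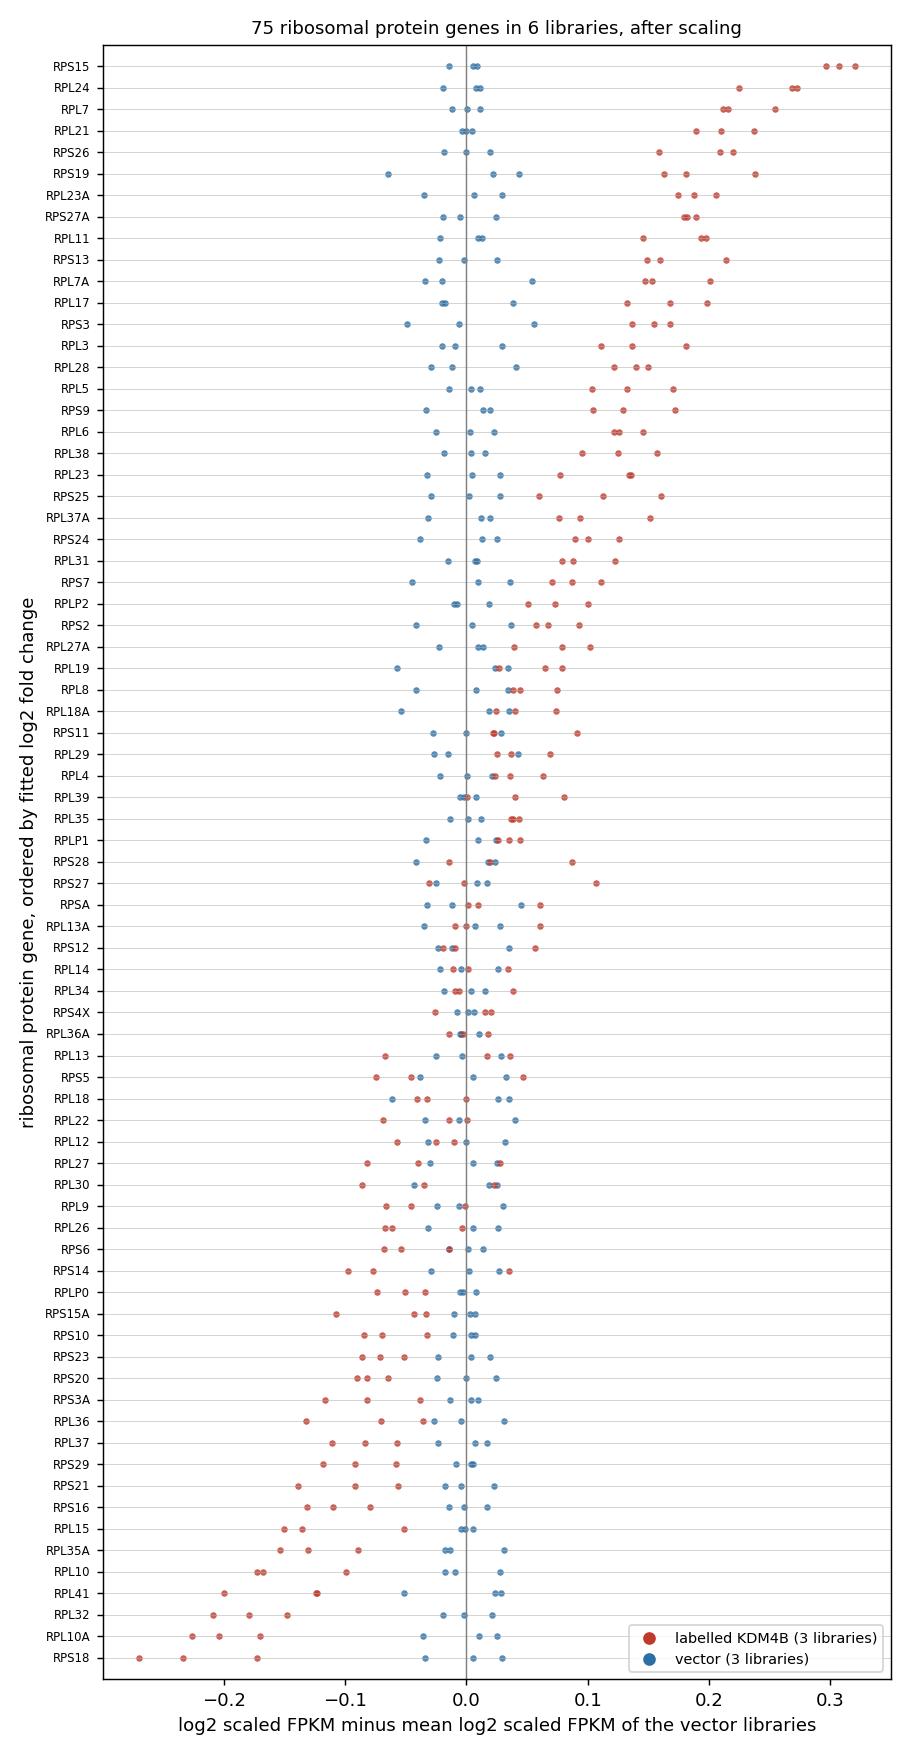
Log2 scaled FPKM of each library minus the mean of the vector libraries (horizontal axis) for 75 ribosomal protein genes (vertical axis, ordered by fitted change), with 3 KDM4B-labelled libraries in red and 3 vector libraries in blue. Red points lie right of blue ones from RPS15 down to RPL27A and left of them from RPS18 up to RPS20, and the groups do not overlap for 50 genes.

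The falls after scaling were led by RPS10P7, RPL22L1, RPS18, RPL10A, RPL23AP82, RPL32, RPL23AP64 and RPL41. RPS18, a protein of the head of the small subunit, had 2752, 2796 and 2904 FPKM in the KDM4B-labelled libraries, against 3972, 3919 and 3814 FPKM in the vector libraries. These groups were far apart, at a log2 fold change of -0.47 as deposited and -0.23 ± 0.0308 (SE) scaled (adjusted p = 1.2e-07 and 9.2e-05, limma). RPL10A, which forms the L1 stalk where the spent transfer RNA leaves, had 947, 1003 and 997 FPKM in the KDM4B-labelled libraries, against 1357, 1347 and 1305 FPKM in the vector libraries (scaled -0.20, adjusted p = 0.0001, limma). RPL32, a large subunit protein whose introns host small nucleolar RNAs, had 452, 481 and 478 FPKM in the KDM4B-labelled libraries, against 639, 630 and 623 FPKM in the vector libraries (scaled -0.18, adjusted p = 0.0002, limma). In RPS18, RPL10A and RPL32 every KDM4B-labelled library was below every vector library on both scales. RPL10, which joins the large subunit late, averaged 294 ± 9.34 FPKM in the KDM4B-labelled libraries and 385 ± 6.73 FPKM in the vector ones (SD, n = 3 each; scaled -0.15, adjusted p = 0.0015, limma).

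The rises after scaling were led by RPL13AP5, RPL7L1, RPS27L, RPS15, RPL21P28, RPL24, RPL7 and RPL21. RPS15, a small subunit protein near the decoding site that is needed for nuclear export of its precursor, had 1247, 1311 and 1253 FPKM in the KDM4B-labelled libraries, against 1220, 1221 and 1204 FPKM in the vector libraries. The groups did not overlap on either scale, but the deposited log2 fold change of 0.064 did not pass the test (adjusted p = 0.0817, limma), while the scaled one was 0.31 ± 0.0237 (SE; adjusted p = 1.4e-06, limma). RPL24, which forms a bridge between the subunits and joins the large one late, had 825, 889 and 860 FPKM in the KDM4B-labelled libraries, against 838, 857 and 859 FPKM in the vector libraries (0.011 as deposited, 0.26 scaled; adjusted p = 0.777 and 1.0e-05). RPL7 averaged 1475 ± 35.7 FPKM in the KDM4B-labelled libraries and 1492 ± 12.0 FPKM in the vector libraries. RPL21 averaged 1110 ± 32.1 FPKM in the KDM4B-labelled libraries and 1135 ± 1.44 FPKM in the vector ones (SD, n = 3 each). Scaled changes were 0.23 for RPL7 and 0.21 for RPL21 (adjusted p = 1.8e-05 and 2.9e-05, limma). For RPL24, RPL7 and RPL21 the rise thus exists relative to the other genes of the library, and not in the deposited values, where the groups overlapped for these 3 genes and no call was made.

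Members with a particular role were looked at as small lists, which share members. RPL5 and RPL11 enter the large subunit together with the smallest ribosomal RNA. RPL5 had 580, 616 and 615 FPKM in the KDM4B-labelled libraries, against 651, 645 and 656 FPKM in the vector libraries, and RPL11 had 1032, 1037 and 1041 FPKM in the KDM4B-labelled libraries, against 1092, 1093 and 1070 FPKM in the vector libraries. Both lay below the vector libraries as deposited (-0.11 and -0.066; adjusted p = 0.0115 and 0.054, limma) and above them scaled (0.14 and 0.18; adjusted p = 0.0013 and 0.00016, limma).

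The stalk proteins RPLP0, RPLP1 and RPLP2 recruit the elongation factors that use GTP. RPLP0 had 2087, 2141 and 2137 FPKM in the KDM4B-labelled libraries, against 2592, 2624 and 2604 FPKM in the vector libraries (scaled -0.053, adjusted p = 0.071, limma; 0.0283 when scaled by the FPKM sum without RNAs lacking a poly(A) tail). RPLP2 had 1130, 1138 and 1122 FPKM in the KDM4B-labelled libraries, against 1285, 1266 and 1264 FPKM in the vector libraries. As deposited 3 of 3 stalk genes were lower (60.3% of all genes), and scaled RPLP2 was called higher (0.074, adjusted p = 0.0237), a call lost without KDM4B replicate 1 (adjusted p = 0.0842), vector replicate 2 (0.0903) or vector replicate 3 (0.0681). A list of 8 genes held those for proteins of the tunnel through which the new chain leaves, or of its exit. As deposited, 0 of these 8 were higher and 6 lower. After scaling, 3 of them (RPL17 at 0.17, RPL23A at 0.19 and RPL31 at 0.096) were higher and 0 lower. The median was -0.20 as deposited and 0.049 scaled. Of all genes, 13.4% were higher and 60.3% lower as deposited, and 34% each way after scaling; the 3 of 8 called higher after scaling are near that share. Of 8 measured genes mutated in Diamond-Blackfan anemia, an inherited failure of red cell production, 0 were higher and 5 lower as deposited, and 6 were higher and 2 (RPS10 and RPL35A) lower after scaling, with medians of -0.12 and 0.12. The deposited count of falls is near the 60.3% of all genes. After scaling, 34% of all genes were called higher and 34% lower. Leaving out any library but KDM4B replicate 4 left 1 of them called lower.

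RPS6, the small subunit protein whose phosphorylation by the S6 kinases is used as a readout of mTOR signalling, had 1651, 1736 and 1733 FPKM in the KDM4B-labelled libraries, against 2101, 2090 and 2066 FPKM in the vector libraries. It was lower as deposited (-0.29, adjusted p = 5.4e-06, limma) and not called after scaling (-0.046, adjusted p = 0.136). RPSA, a small subunit protein also known as a laminin receptor, averaged 1182 ± 28.6 FPKM in the KDM4B-labelled libraries and 1377 ± 36.1 FPKM in the vector ones (SD, n = 3 each; scaled 0.024, adjusted p = 0.495). RPS27A is made as a fusion with ubiquitin, and FAU as a fusion with a ubiquitin-like protein. After scaling RPS27A was called higher (0.18, adjusted p = 9.7e-05, limma) and FAU was not called (0.0091, adjusted p = 0.772), whereas as deposited FAU was called lower (-0.23).

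Copies with a symbol of their own were set beside their parent genes. RPL22L1, which can take the place of RPL22 in the ribosome, was about as abundant as RPL22, at 125, 132 and 123 FPKM in the KDM4B-labelled libraries, against 186, 171 and 174 FPKM in the vector libraries. RPL22 had 127, 128 and 130 FPKM in the KDM4B-labelled libraries, against 151, 155 and 160 FPKM in the vector libraries. RPL22L1 was lower on both scales (-0.48 as deposited and -0.24 scaled; adjusted p = 1.0e-06 and 0.00023, limma), and RPL22 was lower as deposited and not called after scaling (-0.27 and -0.027; adjusted p = 2.4e-05 and 0.47). The FPKM of RPL22L1 as a percent of that of RPL22, which no scaling changes, was 98.4%, 103% and 94.4% in the KDM4B-labelled libraries, against 123%, 111% and 109% in the vector libraries. The groups did not overlap (98.6 ± 4.28% in the KDM4B-labelled libraries and 114 ± 7.53% in the vector libraries, SD, n = 3 each; exact permutation p = 0.1).

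For 3 copies the ratio lay higher in the KDM4B-labelled libraries. RPS27L, a target of p53 in human cells, stood at 3.82%, 3.77% and 3.70% of RPS27 in the KDM4B-labelled libraries, against 3.28%, 2.92% and 3.05% in the vector libraries. RPL36AL was at 49.6% to 50.3% of RPL36A in the KDM4B-labelled libraries, against 44.2% to 44.9% in the vector libraries, though the sequences of these copies are so alike that reads may be shared between them. RPL26L1 was at 3.32% to 3.41% of RPL26 in the KDM4B-labelled libraries, against 2.96% to 3.05% in the vector libraries. In each of these 3 pairs, as for RPL22L1, the exact permutation p was 0.1, the smallest possible. Ratios of other gene pairs were not taken, so no share over all pairs can be set beside these. Of all single genes tested, 71.7% had groups that did not overlap after scaling, so such a gap is common in these libraries. RPL7L1, a nucleolar protein related to RPL7, rose after scaling (0.31, adjusted p = 3.3e-05, limma) and so did RPL7, with overlapping ratios of 5.25% to 5.58% in the KDM4B-labelled libraries and 4.83% to 5.28% in the vector libraries (exact permutation p = 0.2). After scaling RPS27L was higher at 0.31 (adjusted p = 6.9e-05), RPL36AL at 0.16 (adjusted p = 0.00038) and RPL26L1 at 0.12 (adjusted p = 0.0181; 0.0588 without KDM4B replicate 4 and 0.0758 without vector replicate 3). Their parents RPS27, RPL36A and RPL26 were not called (0.025, 0.00013 and -0.044). As deposited, RPL36AL and RPL26L1 were instead lower (-0.085 and -0.12; adjusted p = 0.0277 and 0.0228). The deposited call of RPL36AL was lost without KDM4B replicate 1 (adjusted p = 0.0722, limma), KDM4B replicate 4 (0.0633), vector replicate 1 (0.0802) or vector replicate 2 (0.0816), and without the mean-variance trend (0.0807). That of RPL26L1 was lost without KDM4B replicate 1 (adjusted p = 0.106, limma), vector replicate 1 (0.0686) or vector replicate 2 (0.0787). RPL10L, a copy used in testis, had 4.56, 4.46 and 4.71 FPKM in the KDM4B-labelled libraries, against 6.05, 3.91 and 5.83 FPKM in the vector libraries, and was not called on either scale. Without vector replicate 2 it was called lower as deposited (-0.32, adjusted p = 0.0008). The copies known from muscle (RPL3L) and testis (RPL39L) were at 0 to 0.06 FPKM in every library.

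**Figure D4:**
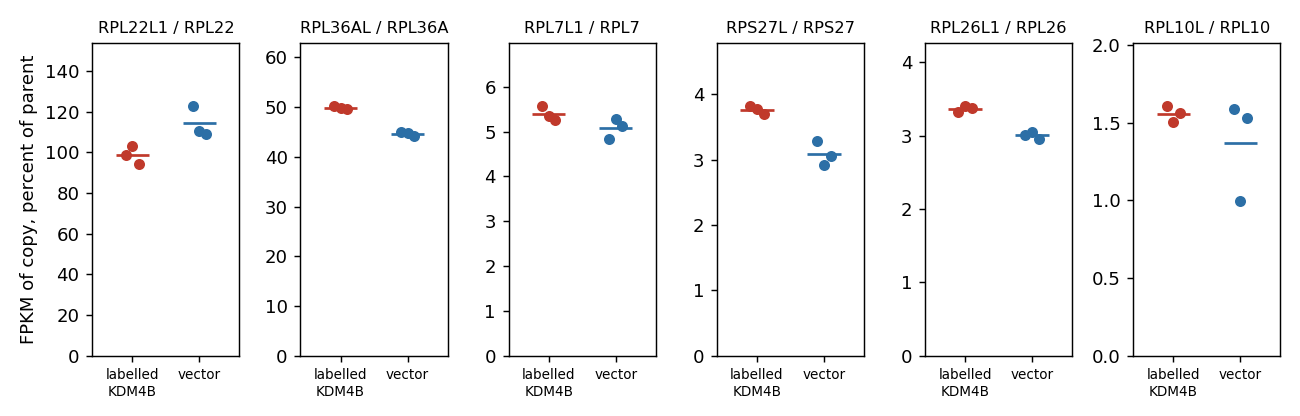
FPKM of 6 ribosomal protein gene copies as a percent of the FPKM of their parent gene (vertical axes, each from 0), with KDM4B-labelled libraries at the left and vector libraries at the right; points are libraries and lines means (n = 3). RPL22L1 is lower in the KDM4B-labelled libraries, at 98.6% against 114% in the vector libraries, RPL36AL, RPS27L and RPL26L1 are higher without overlap, and RPL7L1 and RPL10L overlap.

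Of the 24 pseudogenes 14 were below 1 FPKM. Of the others, RPS10P7 and RPL23AP7 had the highest means over all 6 libraries. RPL23AP7 had 11.0, 8.39 and 10.1 FPKM in the KDM4B-labelled libraries, against 10.3, 9.82 and 11.6 FPKM in the vector libraries. RPS10P7 had 7.66, 7.91 and 8.50 FPKM in the KDM4B-labelled libraries, against 12.6, 13.9 and 12.7 FPKM in the vector libraries. It fell on both scales (-0.64 as deposited and -0.42 scaled; adjusted p = 8.7e-07 and 5.7e-05, limma), and RPS10 was at -0.31 and -0.062. RPL23AP64 was called lower after scaling (-0.17, adjusted p = 0.047), but not without any one library other than vector replicate 1, with adjusted p running between 0.0611 without KDM4B replicate 2 and 0.165 without vector replicate 2. RPL13AP5 was called higher (0.32, adjusted p = 0.0288) but not without KDM4B replicate 4 (0.18, adjusted p = 0.0823) or vector replicate 3 (0.25, adjusted p = 0.116). RPL23AP82 (-0.19), RPL23AP53 (-0.12), RPL32P3 (0.12), RPL13P5 (0.069), RPL21P28 (0.26), RPS18P9 (0.18) and RPL23AP7 (0.12) were not called after scaling, and neither was RPS19BP1 (0.073, adjusted p = 0.193). Calls appeared for RPL23AP82 without KDM4B replicate 1 (adjusted p = 0.00835), for RPL21P28 without KDM4B replicate 4 (0.0259), for RPL23AP7 and RPS18P9 without KDM4B replicate 2 (0.0115 and 0.0442) and for RPS19BP1 without vector replicate 1 (0.00783). Reads of pseudogenes and of their parent genes cannot be told apart where the sequences are alike.

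The same libraries were also counted as reads per splicing event, which is a second count of the same RNA and not an independent experiment. Of 173 tested skipped exon events in 60 ribosomal protein genes, 44 had more reads and 24 fewer in the KDM4B-labelled libraries (edgeR quasi-likelihood test with TMM scaling, adjusted p under 0.05), where 40.3% of all 36440 events were called. RPS15 had 6437, 6680 and 6452 reads at its event in the KDM4B-labelled libraries, against 6211, 6025 and 5986 reads in the vector libraries, although the KDM4B-labelled libraries held fewer reads in all (log2 fold change 0.32, adjusted p = 9.0e-10, edgeR). At an event of RPL10A there were 2761, 2915 and 3146 reads in the KDM4B-labelled libraries, against 4267, 4206 and 3943 reads in the vector libraries (-0.27, adjusted p = 3.9e-06, edgeR). The most read event, in RPLP0, had 35078, 34892 and 34429 reads in the KDM4B-labelled libraries, against 42582, 42759 and 40884 reads in the vector libraries, and was not called (-0.054, adjusted p = 0.17, edgeR).

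The largest rises were in RPS15, RPL24, RPL5 and RPS13, and the largest falls in RPL10A, RPL22L1 and RPL32. RPL22L1 fell at both of its events (-0.26 and -0.25), RPL24 rose at 3 of 3 (0.23 to 0.27) and RPL32 fell at 6 of 6 (-0.23 to -0.14). Per gene, the median change over events followed the scaled FPKM closely (Pearson correlation 0.96 over 60 genes, given as a description since both come from the same reads). All 35 of these genes that were called on scaled FPKM had the same sign in the median over their events. Of the 22 called higher, 18 had at least 1 event called higher and 0 had an event called lower; of the 13 called lower, 9 had an event called lower and 0 an event called higher. RPL7L1 stood apart, with 0.15 for its event against 0.31 for FPKM. In RPS3, called higher on scaled FPKM, a single event with 13 to 41 reads per library went the other way and gave the lowest value of all, -0.72 (adjusted p = 0.079, edgeR).

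**Figure D5:**
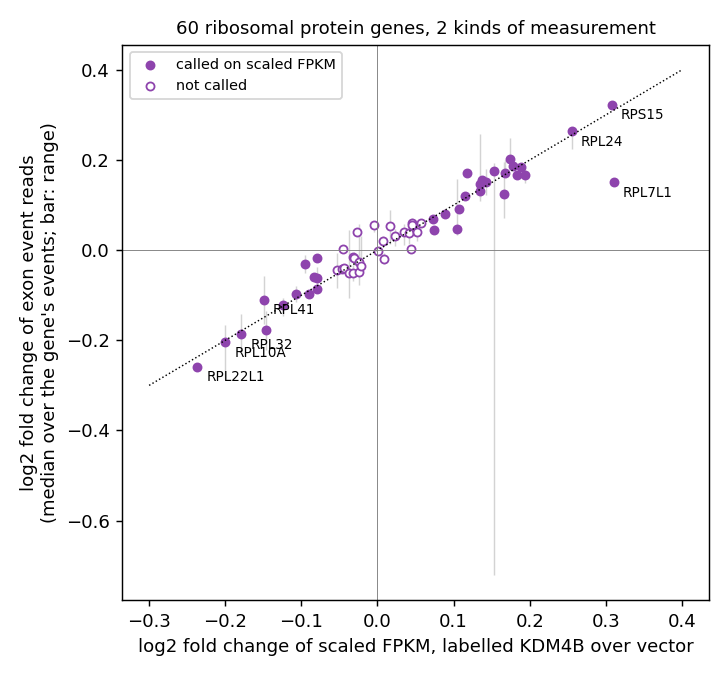
Log2 fold change of scaled FPKM (horizontal axis) and of skipped exon event reads (vertical axis, median over a gene's events, bars from lowest to highest event) of the KDM4B-labelled libraries over vector for 60 ribosomal protein genes; filled points were called on scaled FPKM. Points follow the dotted line of equality from RPL22L1 (-0.24 and -0.26) to RPS15 (0.31 and 0.32), while RPL7L1 lies below it.

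Events of the other types were fewer. Of 52 events with mutually exclusive exons 11 had more and 8 fewer reads (48% of all such events were called), with 5 fewer without KDM4B replicate 1. The largest rises were in RPS13 (0.23 at 2 events) and RPS3 (0.21), and the largest falls in RPL10A (-0.18) and RPL32 (-0.14). Of 8 alternative 5′ splice site events 2 had more reads and 0 fewer (30.7% of all called), in RPS14 and RPL6, with 0 called without vector replicate 2 and 1 without KDM4B replicate 1, KDM4B replicate 2 or vector replicate 3. Of 4 retained intron events 2 had more reads and 0 fewer (37.6% of all called), both in RPL28. The more read of these 2 had 4335, 4654 and 4270 reads in the KDM4B-labelled libraries, against 4613, 4480 and 4484 reads in the vector libraries (0.25, adjusted p = 0.0011, edgeR). The other changed by 0.31 (adjusted p = 0.00039, edgeR). For both, the raw reads of the groups overlapped, so the rise holds only after TMM scaling. RPL28 also rose in scaled FPKM (0.14, adjusted p = 0.0015, limma). The positions of only 9 of the 240 deposited events of ribosomal protein genes lay within their gene on GRCh38, the build named in the submitters' notes, so no positions are given.

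The splice form itself was tested where it could be had. The deposited counts join both forms of an event, but inclusion and skipping could be recovered for 39 skipped exon events in 14 ribosomal protein genes. Of the 33 that had at least 600 reads over the libraries, 33 had under 1% skipping reads (median 0.0074%), against 81.4% of all 3019 such events (median 0.167%). RPL7A, for example, had 0 skipping reads beside 10350 to 10980 inclusion reads of an event in the KDM4B-labelled libraries, and 12, 0 and 0 beside 10663 to 11206 in the vector libraries. Inclusion reads grow with exon length, so these are shares of reads and not of transcripts. With enough reads of both forms for a test, 0 of 9 skipped exon events were called (edgeR, form by group; 5.5% of all tested events called, 2 of 9 at an unadjusted p under 0.05, and 0 called with DESeq2). Likewise 0 of 19 events with mutually exclusive exons were called (1.63% of all; 2 at an unadjusted p under 0.05, 0 with DESeq2), except that 1 was called without vector replicate 3. Relative to their gene's exon reads, 0 of 3 retained introns were called (13.7% of all; 0 at an unadjusted p under 0.05, 0 with DESeq2).

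Of 6 alternative 5′ splice site events set against their gene's exon reads, 1 was called (3.69% of all), in RPS14, a small subunit protein whose loss marks the 5q- syndrome of the bone marrow. That event had 166, 158 and 173 reads in the KDM4B-labelled libraries, against 149, 99 and 159 reads in the vector libraries, next to 13894 to 15897 exon reads of RPS14 in the KDM4B-labelled libraries and 17535 to 18302 in the vector libraries. The log2 odds ratio was 0.55 (adjusted p = 0.0362, edgeR), and the call was lost with DESeq2 and without KDM4B replicate 1, KDM4B replicate 4, vector replicate 1 or vector replicate 2. RPL41 had 285, 319 and 275 reads at such an event in the KDM4B-labelled libraries, against 319, 269 and 324 reads in the vector libraries (0.33, adjusted p = 0.172). On simulated data the form test recovered 63% of log2 odds ratios of 2 and 8% of those of 1 among 1346 skipped exon events, so most shifts of 1 or less would have been missed in that test. The simulated skipping shares did not go as low as those of the tested events of ribosomal protein genes, so these rates may not hold for them.

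Genes that work with the ribosomal proteins were taken from lists of other TOP mRNAs, ribosome assembly, regulators and quality control. For the counts that follow, 13.4% of all genes were higher and 60.3% lower as deposited, at a median log2 fold change of -0.22, and 34% each way after scaling, at a median of -0.0013. Of 25 elongation factor and other TOP mRNA genes, 2 were higher and 16 lower as deposited, and 13 higher and 6 lower after scaling, at medians of -0.17 and 0.076. The share lower as deposited is near that of all genes. GAS5, a non-coding host of small nucleolar RNAs with a TOP start, had 196, 207 and 217 FPKM in the KDM4B-labelled libraries, against 541, 505 and 499 FPKM in the vector libraries. This lay outside the range of the ribosomal protein genes (-1.07 scaled, adjusted p = 1.2e-08, limma). SNHG1, of the same kind, had 45.0, 51.7 and 45.9 FPKM in the KDM4B-labelled libraries, against 181, 155 and 146 FPKM in the vector libraries (-1.49 scaled). EIF4A2, an RNA helicase of translation initiation, fell as well (-0.40 scaled), and TMSB10, which encodes an actin-binding thymosin, rose on both scales (0.76 as deposited and 1.01 scaled). The fall of GAS5, SNHG1 and EIF4A2 held on both scales.

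Of 31 genes for ribosome assembly and ribosomal RNA synthesis, 4 were higher and 14 lower as deposited, and 19 higher and 5 lower after scaling, at medians of -0.084 and 0.15. The share higher as deposited is near that of all genes. NCL (nucleolin), which binds ribosomal RNA precursors, had 369, 383 and 345 FPKM in the KDM4B-labelled libraries, against 306, 306 and 308 FPKM in the vector libraries. PES1, needed for processing in the large subunit, had 71.7, 69.7 and 69.3 FPKM in the KDM4B-labelled libraries, against 61.8, 61.7 and 59.0 FPKM in the vector libraries. Both rose on both scales (0.50 and 0.45 scaled), as did UBTF, the factor that opens ribosomal DNA for transcription (0.40 scaled). GNL3, nucleostemin, had 82.9, 88.6 and 86.0 FPKM in the KDM4B-labelled libraries, against 149, 142 and 141 FPKM in the vector libraries, and fell on both scales (-0.50 scaled, adjusted p = 4.3e-07, limma). The ribosomal RNA of the large subunit, RNA28S5, had 24367, 19600 and 23410 FPKM in the KDM4B-labelled libraries, against 914, 377 and 349 FPKM in the vector libraries. The precursor RNA45S5 had 261, 241 and 219 FPKM in the KDM4B-labelled libraries, against 9.18, 7.35 and 6.90 FPKM in the vector libraries. How much of each a library holds depends on the RNA selection, and the part of that was not tested. Of a list of 11 RNAs without a poly(A) tail, 10 were higher as deposited and 11 after scaling, and 0 lower. All of them belong to the set of 179 above, so this repeats the difference of that set and adds no separate result.

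Of 20 regulators of TOP mRNAs and S6 kinase signalling, 2 were higher and 11 lower as deposited, and 11 higher and 7 lower after scaling, at medians of -0.12 and 0.11. Except for the share higher after scaling, these lie near the shares of all genes. EIF4EBP1, which mTOR phosphorylates and which holds back initiation, had 97.8, 104 and 106 FPKM in the KDM4B-labelled libraries, against 273, 255 and 243 FPKM in the vector libraries (-1.07 scaled, adjusted p = 1.9e-08, limma). DDIT4, a stress-induced inhibitor of mTOR, fell too (-0.85 scaled), as did SESN2, a leucine sensor that restrains mTOR (-0.65 scaled), and RPTOR, the subunit of mTOR complex 1 that binds its substrates, rose (0.50 as deposited, 0.73 scaled). These 4 kept their direction on both scales. Of 12 genes of ribosome quality control, 3 were higher and 7 lower as deposited, and 5 higher and 5 lower after scaling, at medians of -0.18 and 0.033. The share lower as deposited is near that of all genes. ZNF598, which marks collided ribosomes, had 32.1, 35.0 and 31.7 FPKM in the KDM4B-labelled libraries, against 62.7, 57.8 and 56.5 FPKM in the vector libraries. LTN1, which tags stalled chains for degradation, had 8.76, 9.31 and 9.73 FPKM in the KDM4B-labelled libraries, against 5.18, 5.13 and 5.56 FPKM in the vector libraries. TCF25, a partner of LTN1, fell (-0.49 scaled) and GCN1L1, a sensor of collided ribosomes, rose (0.55 scaled).

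The changes were also set beside the tract at the gene start. Of the 42 genes with it, as in RPS18, RPL41 and RPL24 above, 15 were called higher and 9 lower after scaling, with a median log2 fold change of 0.020. Of the 20 without it, 8 were called higher and 5 lower, with a median of 0.036. Of all genes, 34% were called higher and 34% lower. This is a description, since starts come from an annotation and not from these cells.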

How the data were processed

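Gene expression was deposited by the authors as FPKM with 2 decimals for each gene, per the file headers, and splicing events as raw read counts per event and library, both splice forms joined, deposited by the authors as whole numbers in 4 tables. The submitters' processing notes list HISAT, StringTie, Cufflinks, GRCh38 and hg38 with no roles. The splicing caller and the depth behind FPKM were not given in the sources used here. FPKM were tested with limma 3.58.1 (R 4.3.3) on log2(FPKM + 1), which understates changes of low genes, for genes with a mean of at least 1 (both directions tested, Benjamini-Hochberg adjustment over 12148 genes), and again after median of ratios scaling. Event counts with at least 10 reads in each library were tested with edgeR 4.0.16. Inclusion and skipping were recovered from 3247 sets of 2 skipped exon events and 1 event with mutually exclusive exons, 2 of them left out; 19478 of 19482 values were exactly even and not negative. Alternative splice sites and retained introns were tested against the summed skipped exon counts of their gene, since their forms could not be separated. On simulated data limma recovered 44% of 100 log2 changes of 0.2 and 97% of 100 of 0.5 among 12148 genes, and edgeR 54% of changes of 0.5 among 36440 events. The changed genes were drawn only from the better expressed ones. They were also far fewer than the genes called in the real data, so the limma rates may not hold there. Replicates differed by more than sampling noise (chi-square per degree of freedom 2.42 to 2.97 within groups). Of the gene IDs, 19400 of 19571 matched RefSeq (GRCh38.p14), from which the start windows were taken. The members, lists and tests were chosen with earlier results of these data known. Named were 7 of the 8 most abundant members, the 8 highest and 8 lowest scaled changes, all copies with their parents, tested pseudogenes, RPL5, RPL11, the stalk, RPS6, RPSA, up to 4 genes of each list by p, and the largest and most read events; RPL10 is also a parent, and RPL28, RPS10, RPS3 and the recovered RPL7A event were named after their values were seen. Alternatives were other scalings, pseudocount, filter and variance model, DESeq2 1.42.0, a replicate block, and leaving out libraries singly. Some genes are not reported here, and counts and sums include them where measured.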

Additional observations from a re-analysis of the deposited data

How the results depend on the processing

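Scaling changed the results most. Scaled by median of ratios, 4130 of all genes were higher and 4126 lower, and by the FPKM sum without RNAs lacking a poly(A) tail 4016 and 4212, against 1628 and 7323 as deposited. Of the members, 33 and 32 were then higher and 19 and 22 lower, against 0 and 72; with no filter 1 was higher, and leaving out a library gave 0 to 1 higher as deposited, 12 to 19 lower after scaling. The difference in the share of the FPKM sum of all members was -1.89 percentage points and, without RNAs lacking a poly(A) tail, 0.279. Log2 fold changes turned positive by median of ratios and by the other sum for RPS2 (0.073 and 0.065), RPL13A (0.017 and 0.0090), RPLP1 (0.035 and 0.027), RPL3 (0.14 and 0.14), RPL7A (0.17 and 0.16), RPL21 (0.21 and 0.20), RPL7 (0.23 and 0.22), RPL26L1 (0.12 and 0.11), RPL36AL (0.16 and 0.15), RPL39 (0.040 and 0.033), RPS27 (0.025 and 0.017), RPS19BP1 (0.073 and 0.065), RPL5 (0.14 and 0.13), RPL11 (0.18 and 0.17), RPLP2 (0.074 and 0.067), RPSA (0.024 and 0.016) and FAU (0.0091 and 0.0014), and for RPL36A by median of ratios (0.00013). Of the splice forms 1 was called in the members; 0 with DESeq2 or a replicate block, and 0 to 2 with a library left out.

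Replicate numbers 1 and 2 occur in both groups but pair nothing by the labels. The deviations of same-numbered libraries had correlations of -0.02 and 0.14, and those of differently numbered libraries -0.15 to 0.10. With a replicate block 70 members were lower and 0 higher as deposited, and after scaling 25 were higher and 18 lower; 44 events had more and 36 fewer reads, against 59 and 32. The block ended the scaled calls of RPS2 (adjusted p = 0.0892), RPL23AP64 (0.111), RPL13AP5 (0.196), RPL26L1 (0.192) and RPLP2 (0.0634) and the deposited ones of RPL5 (0.0573) and RPL36AL (0.135) in limma, and it gave scaled calls for RPL26 (0.0397) and RPL21P28 (0.0470). DESeq2 size factors were not run for the splice forms, whose model holds a term for each library. FPKM give no depth, so no counting error could be set beside them, and the cause of differences between settings was not tested.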
